A study of Mus musculus with 24 samples.

Results

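The genes described here encode the JmjC, TET and ALKB proteins, most of which are dioxygenases that use molecular oxygen to act on histones, DNA, RNA or other proteins. The list names 36 genes, and a gene was kept where its mean over the 12 RNA-seq libraries was at least 0.5 CPM (counts per M counts of a library, M for mega, on the scaled library size). All 36 were kept, of 55401 genes in the table, and all 36 were among the 14749 genes with enough counts to be tested. The cells were CD8 T cells of C57BL/6J mice, purified from spleen and lymph nodes with magnetic beads and activated in culture with anti-CD28 and IL-2 for 3 days. From day 2 to day 3 they received sodium lactate (20 mM) together with Oxyrase, sodium pyruvate (20 mM), sodium lactate (20 mM) alone or sodium chloride (20 mM). Sodium chloride served as the control for added sodium. Oxyrase is a preparation of bacterial membranes whose enzymes remove oxygen from a medium. It was given only with lactate, its amount is not stated, and Oxyrase without lactate was not analysed here. Each group had 3 libraries for RNA-seq and 3 for ATAC-seq, in which a transposase marks accessible DNA, so 24 libraries in all.

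These enzymes bind iron and 2-oxoglutarate and split molecular oxygen, placing 1 oxygen atom on the substrate and turning 2-oxoglutarate into succinate. JmjC demethylases hydroxylate methyl groups on histone lysines, which are then lost; TET proteins oxidise 5-methylcytosine in DNA; and ALKB proteins remove or modify methyl and other groups on DNA, RNA or proteins. The transcripts of several JmjC genes are known to rise in hypoxia through the hypoxia-inducible factors (HIF), and the activity of some of the enzymes is known to fall when oxygen is scarce. Roles given below are those described for the mouse or human proteins, and transcript levels do not measure enzyme activity.

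RNA-seq libraries held 26.04 to 39.64 M counts and ATAC-seq libraries 25.31 to 37.07 M counts. Whether replicates are separate mice or cultures is not given in the labels, so p-values measure only the spread between these samples. The deposited RNA values also look as if replicate number had already been adjusted for, and RNA p-values may then be too small. In bulk libraries fewer cells with a transcript and less transcript per cell cannot be told apart. The 5 CD8 T cell markers (Cd8a, Cd8b1, Cd3e, Cd3d and Trac) summed to 1036 to 1093 CPM with lactate plus Oxyrase, 1372 to 1408 CPM with pyruvate, 1429 to 1507 CPM with lactate and 1535 to 1545 CPM with NaCl. The markers did not move alike. With lactate plus Oxyrase and with lactate, means were 406 and 658 CPM for Cd8a, 134 and 220 for Cd8b1 and 222 and 276 for Trac. They were 171 and 178 CPM for Cd3e and 140 and 148 for Cd3d. The CD4 T cell list (Cd4 and Zbtb7b) summed to 37.3 to 47.7 CPM with lactate plus Oxyrase and 15.8 to 16.9 CPM with lactate (9.69 to 10.4 CPM with pyruvate and 9.63 to 11.6 CPM with NaCl); Zbtb7b made up nearly all of it and Cd4 stayed under 1 CPM in every library. The 4 myeloid markers summed to 4.18 to 6.10 CPM with lactate plus Oxyrase and 1.62 to 1.86 CPM with lactate (2.69 to 3.71 CPM with pyruvate and 1.39 to 1.58 CPM with NaCl), nearly all from Cd68, with Lyz2 at 0 in all 3 Oxyrase libraries. Summed B cell, dendritic cell, NK cell and erythroid markers stayed under 1.4 CPM in every library. Hba-a1 was at 0 throughout, and Ncr1 was at 0 in every library but NaCl replicate 2 (0.06 CPM). The part of these marker shifts in the results below was not tested. In ATAC-seq, NaCl replicate 3 stood apart from its group at the members' peaks, and those counts are given with and without it.

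Promoters are shown for some of the members given in full below. They are Kdm3a, Kdm5b and Kdm4a, whose transcripts were higher with Oxyrase, and Hspbap1, whose transcript was lower. The choice was made by hand and not by rank: Alkbh2, which rose further than Kdm5b and Kdm3a, has a window that is not shown. Each promoter shown is a RefSeq window of 300 bases, 250 before and 50 after the start. It is printed 5′ to 3′ on the gene's own strand in GRCm38.p6. Capitals mark the letters ACGTG or GCGTG on either strand, the core read by HIF and, for ACGTG within CACGTG, by other E-box factors as well.
Kdm3a, chr6:71632868-71633167, minus strand: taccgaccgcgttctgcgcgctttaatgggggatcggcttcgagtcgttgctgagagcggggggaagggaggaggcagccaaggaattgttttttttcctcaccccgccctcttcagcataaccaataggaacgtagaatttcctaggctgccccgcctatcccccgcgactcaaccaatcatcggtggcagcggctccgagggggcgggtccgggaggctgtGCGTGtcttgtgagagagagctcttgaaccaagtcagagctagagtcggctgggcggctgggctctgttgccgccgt
Kdm5b, chr1:134559928-134560227, plus strand: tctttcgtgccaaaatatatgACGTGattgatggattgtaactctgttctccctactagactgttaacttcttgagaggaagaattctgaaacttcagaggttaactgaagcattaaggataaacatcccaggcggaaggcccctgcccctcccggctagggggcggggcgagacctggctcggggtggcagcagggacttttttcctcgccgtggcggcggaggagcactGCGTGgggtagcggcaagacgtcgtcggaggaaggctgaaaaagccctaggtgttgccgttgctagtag
Kdm4a, chr4:118179994-118180293, minus strand: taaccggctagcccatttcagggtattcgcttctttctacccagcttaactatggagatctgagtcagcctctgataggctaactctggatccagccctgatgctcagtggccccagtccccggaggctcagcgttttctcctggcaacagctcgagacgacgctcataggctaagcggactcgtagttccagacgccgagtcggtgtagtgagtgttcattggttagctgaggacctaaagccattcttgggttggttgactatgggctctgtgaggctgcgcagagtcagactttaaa
Hspbap1, chr16:35770136-35770435, plus strand: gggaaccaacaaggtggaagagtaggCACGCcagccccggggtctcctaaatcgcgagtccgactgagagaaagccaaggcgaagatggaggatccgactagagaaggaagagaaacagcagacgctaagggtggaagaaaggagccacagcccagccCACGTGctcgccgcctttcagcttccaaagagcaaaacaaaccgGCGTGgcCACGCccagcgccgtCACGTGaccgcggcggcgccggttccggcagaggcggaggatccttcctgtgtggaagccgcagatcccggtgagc
The Kdm3a window held 1 match, GCGTG beginning 27 bases before the start. Kdm3a has 3 RefSeq windows, and only 1, which overlaps an ATAC-seq peak at an end of the gene, is given here. The Kdm5b window held ACGTG at 229 and GCGTG at 19 bases before the start, and the Kdm4a window held neither. The Hspbap1 window held 7 matches, of which 4 come from 2 copies of CACGTG, which reads the same on both strands and is counted on each. Either motif was present in 43.8% of all 32851 RefSeq windows of this length (ACGTG in 19.6%, GCGTG in 32.4%) and in 18 of the 31 members with a window (58.1%). It was found at 6 of 11 members whose transcript was higher with Oxyrase than with lactate alone, at 5 of 8 that were lower and at 7 of 12 that did not pass the test. The 43.8% covers every window, whether or not its gene was expressed. Each member gave 1 window, by preference under an ATAC-seq peak at an end of the gene. These are therefore not like sets, and enrichment was not tested. A match is a run of letters, not a bound site. Kdm2a, Kdm3b, Kdm4b, Kdm5a and Kdm6b had no entry.

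Adding Oxyrase to lactate raised 14 of the 36 transcripts and lowered 8, in edgeR's quasi-likelihood test at an adjusted p under 0.05 over all genes. These 22 members compare with a background of 49.7% of all tested genes called in this comparison, 26.1% higher and 23.6% lower. The groups did not overlap at 23 members, against 55.9% of all genes. The median log2 fold change was 0.07 over the members and -0.00 over all genes, and the median absolute change was 0.19 over the members and 0.24 over all genes. The members that rose furthest were 4 histone demethylases, Kdm6b, Kdm4a, Kdm5b and Kdm3a, and the DNA repair enzyme Alkbh2, each by more than 0.5 on the log2 scale; no member fell by as much. By substrate, all 3 H3K9 and H3K36 demethylases (Kdm4a, Kdm4b, Kdm4c) and all 3 H3K4 demethylases (Kdm5a, Kdm5b, Kdm5c) rose, whereas of the 3 H3K36 demethylases Kdm2b and Kdm8 fell and Kdm2a did not pass the test. Against NaCl, lactate with Oxyrase raised 12 members and lowered 8 (background 50.8% called, 26.5% higher and 24.3% lower), and the groups did not overlap at 25 (57.1% of all genes).

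**Figure D1:**
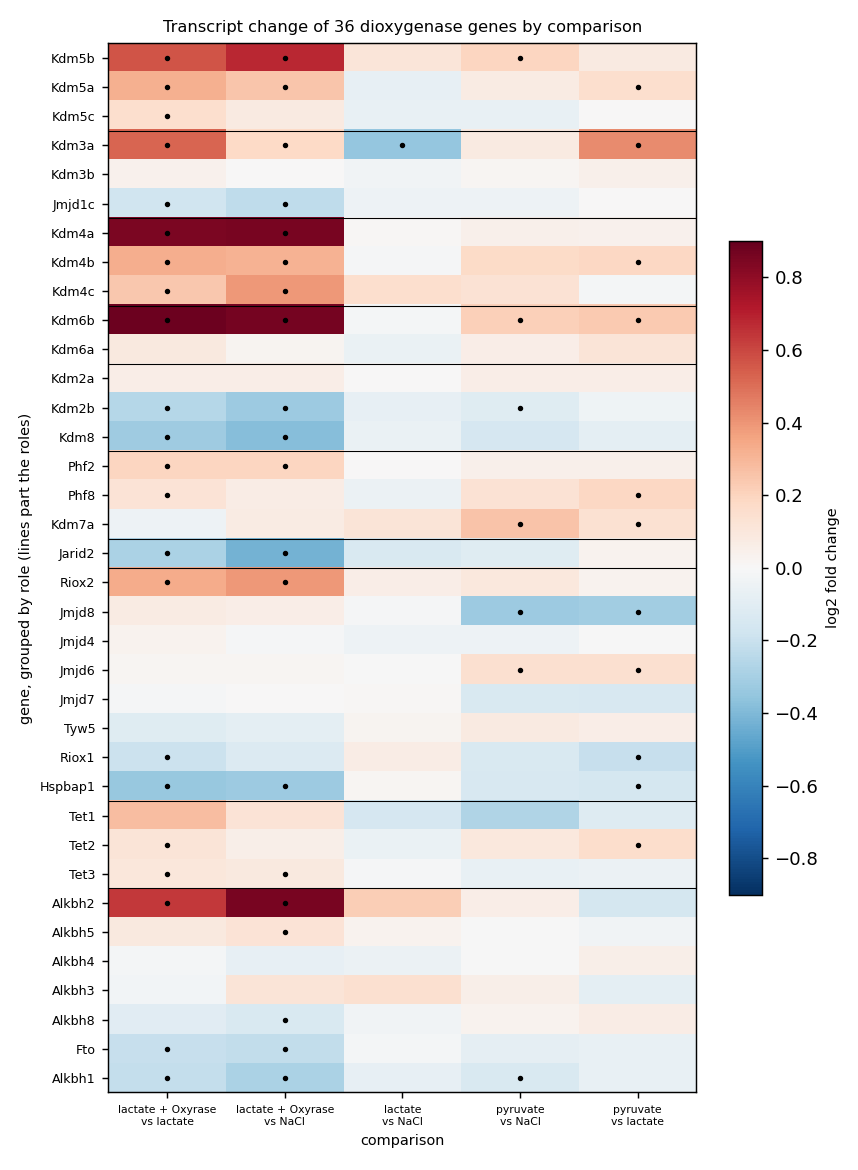
Log2 fold change of each of the 36 transcripts (rows, grouped by role) in the 5 comparisons (columns), with a dot where the adjusted p was under 0.05. The Oxyrase columns hold the largest changes, up to 0.88 for Kdm6b, and the lactate against NaCl column holds 1 dot, at Kdm3a.

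Among the H3K27 demethylases, Kdm6b (chr11:69398508-69420367), an inducible enzyme that removes the Polycomb mark H3K27 methylation, had 133, 150.2 and 149 CPM with lactate plus Oxyrase, 88.2, 92.6 and 95.1 with pyruvate, 85.1, 75.8 and 74 with lactate and 88.6, 72.7 and 76.5 with NaCl. Every Oxyrase library lay above all 9 others. Its log2 fold change was 0.88 ± 0.07, adjusted p = 1.02e-08 over lactate, a 1.84-fold difference, and 0.86 ± 0.07, adjusted p = 1.39e-08 over NaCl. Its paralogue Kdm6a (chrX:18160862-18279936) averaged 56.1 ± 0.977 CPM with lactate plus Oxyrase and 52.9 ± 3.01 CPM with lactate (SD, n = 3 each) and did not pass the test (0.09 ± 0.04, adjusted p = 0.117).

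Of the H3K9 and H3K36 demethylases, Kdm4a (chr4:118136957-118180090) had 174, 144 and 153 CPM with lactate plus Oxyrase, 86.9, 93.4 and 88 with pyruvate, 88.6, 85.9 and 86.9 with lactate and 88.6, 84.6 and 86.7 with NaCl. The other 3 groups lay together between 84.6 and 93.4 CPM, and the 3 Oxyrase libraries lay well above them. The change was 0.85 ± 0.05, adjusted p = 9.17e-10 over lactate and 0.86 ± 0.05, adjusted p = 8.49e-10 over NaCl. Kdm4b (chr17:56325970-56403774) had 42, 40.9 and 43.6 CPM with lactate plus Oxyrase, 37.5, 38.9 and 38.4 with pyruvate, 36.1, 31.2 and 33.7 with lactate and 31.5, 35.3 and 35.1 with NaCl. All 3 Oxyrase libraries lay above the others, with a change of 0.33 ± 0.06, adjusted p = 0.000155 over lactate. Kdm4c (chr4:74242497-74405864) averaged 56.9 ± 1.31 CPM with lactate plus Oxyrase, 48.2 ± 2.22 CPM with lactate and 43.5 ± 1.51 CPM with NaCl (SD, n = 3 each), with no overlap between the Oxyrase and lactate libraries (0.24 ± 0.05, adjusted p = 0.00092).

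Kdm3a (chr6:71588970-71632990), which removes the lower H3K9 methylation states and is a known HIF target in other cells, had 134, 135 and 139.8 CPM with lactate plus Oxyrase, 127, 128 and 127 with pyruvate, 102, 93.4 and 89 with lactate and 115, 119 and 127 with NaCl. It was the only member called for lactate against NaCl: lactate libraries lay below all 9 others. The change was 0.52 ± 0.05, adjusted p = 6.91e-08 for lactate with Oxyrase over lactate, 0.18 ± 0.05, adjusted p = 0.0042 for lactate with Oxyrase over NaCl, -0.35 ± 0.05, adjusted p = 0.000391 for lactate over NaCl and 0.42 ± 0.05, adjusted p = 5.3e-06 for pyruvate over lactate. These comparisons share libraries; the 1.44-fold difference over lactate stood beside a 1.13-fold difference over NaCl. Its relatives differed: Kdm3b did not pass any test (0.04 with Oxyrase over lactate), and Jmjd1c fell to 99.2 ± 1.76 CPM with lactate plus Oxyrase, against 112 ± 5.5 CPM with lactate (-0.18 ± 0.05, adjusted p = 0.003).

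The H3K4 demethylases, which erase methylation found at active promoters, were led by Kdm5b (chr1:134560178-134632878), with 157, 152 and 154 CPM with lactate plus Oxyrase, 108, 113 and 111 with pyruvate, 113, 101 and 100.1 with lactate and 91.3, 98.6 and 100.2 with NaCl. Every Oxyrase library lay above all others, and the change was 0.57 ± 0.05, adjusted p = 2.21e-08 over lactate and 0.68 ± 0.05, adjusted p = 2.53e-09 over NaCl. Kdm5a (chr6:120364099-120444574) had 183, 179 and 173 CPM with lactate plus Oxyrase, 157, 165 and 153 with pyruvate, 147, 142 and 139 with lactate and 152, 154 and 146 with NaCl. The Oxyrase libraries again did not overlap any other group (0.32 ± 0.04, adjusted p = 2.68e-06). The X-linked Kdm5c averaged 200.3 ± 2.85 CPM with lactate plus Oxyrase and 181 ± 5.9 CPM with lactate (0.15 ± 0.03, adjusted p = 0.00164), and did not pass the test against NaCl (adjusted p = 0.0592).

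In the H3K36 group both calls were lower. Kdm2b, which also brings a Polycomb complex to unmethylated CpG islands, averaged 141 ± 2.98 CPM with lactate plus Oxyrase and 168 ± 4.24 CPM with lactate (SD, n = 3 each), with no overlap (-0.25 ± 0.04, adjusted p = 1.29e-05). Kdm8 (chr7:125444620-125463651), first described as an H3K36 demethylase and since as a protein hydroxylase, had 8.41, 9.08 and 9.53 CPM with lactate plus Oxyrase, 9.84, 10.9 and 11 with pyruvate, 11, 10.6 and 12.2 with lactate and 13, 11.5 and 10.6 with NaCl. All 3 Oxyrase libraries lay below the rest; the change was -0.32 ± 0.09, adjusted p = 0.00854 over lactate, and adjusted p = 0.0519 without lactate replicate 3. Kdm2a averaged 136 ± 2.86 CPM with lactate plus Oxyrase and 130.3 ± 7.28 CPM with lactate and did not pass the test (adjusted p = 0.225).

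Of the PHF demethylases, Phf2 (0.19 ± 0.04, adjusted p = 0.00024) and Phf8 (0.12 ± 0.04, adjusted p = 0.0316) were slightly higher with Oxyrase than with lactate. Kdm7a had -0.05 and did not pass. Jarid2, a JmjC protein without demethylase activity that binds the Polycomb complex PRC2, fell to 34.7 ± 0.882 CPM with lactate plus Oxyrase, against 42.3 ± 1.08 CPM with lactate and 46.6 ± 1.91 CPM with NaCl (SD, n = 3 each). The change was -0.29 ± 0.05, adjusted p = 0.000142 over lactate and -0.43 ± 0.05, adjusted p = 2.02e-06 over NaCl, the largest fall of any member over NaCl.

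Among the 8 members that hydroxylate ribosomal or other proteins or RNA, or whose substrate is less certain, Riox2 rose, Riox1 and Hspbap1 fell and 5 did not pass the test. Riox2 (chr16:59471753-59492532), a nucleolar histidyl hydroxylase of a ribosomal protein, had 153, 139 and 144 CPM with lactate plus Oxyrase, 113, 118 and 124 with pyruvate, 112, 119 and 114 with lactate and 117, 107 and 108 with NaCl. The Oxyrase libraries lay above all others (0.33 ± 0.05, adjusted p = 1.08e-05 over lactate). Hspbap1 (chr16:35769726-35828462), a JmjC protein that binds a small heat shock protein, had 17.2, 16.3 and 16.9 CPM with lactate plus Oxyrase, 18.7, 19.8 and 18.5 with pyruvate, 20.2, 21.2 and 22.2 with lactate and 20.9, 21.4 and 20.8 with NaCl. Here the Oxyrase libraries were the lowest 3 of 12 (-0.34 ± 0.06, adjusted p = 8.35e-05 over lactate). Riox1, the related ribosomal histidyl hydroxylase, averaged 29.7 ± 2.37 CPM with lactate plus Oxyrase and 34 ± 2.44 CPM with lactate (SD, n = 3 each); the groups overlapped (-0.19 ± 0.07, adjusted p = 0.0393). Jmjd4, Jmjd6 and Jmjd7, which hydroxylate lysines of other proteins, Jmjd8, found in the endoplasmic reticulum, and Tyw5, which hydroxylates a modified base of tRNA, had changes between -0.11 (Tyw5) and 0.07 (Jmjd8).

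The TET genes, whose enzymes oxidise 5-methylcytosine, had small changes or wide errors. Tet3 (chr6:83362373-83457208) had 178, 168 and 166 CPM with lactate plus Oxyrase, 153, 154 and 152 with pyruvate, 158, 156 and 163 with lactate and 164, 160.5 and 156 with NaCl. The Oxyrase libraries lay above the rest, by 0.10 ± 0.04, adjusted p = 0.0249 over lactate and 0.09 ± 0.04, adjusted p = 0.0464 over NaCl; the call over lactate was lost on leaving out some single libraries (adjusted p up to 0.132). Tet2 (chr3:133463677-133545136) had 87.4, 85.7 and 87.5 CPM with lactate plus Oxyrase, 90.6, 93.8 and 83.6 with pyruvate, 83.7, 75.6 and 81.7 with lactate and 84.9, 83.6 and 83.1 with NaCl. The Oxyrase and lactate libraries did not overlap, but the margin was small (0.11 ± 0.05, adjusted p = 0.0484), and adjusted p was 0.0293 to 0.237 on leaving out single libraries, above 0.05 in 9 of 12. Tet1 (chr10:62804570-62887469), counted at under 6 CPM in every library, had 3.48, 5.3 and 4.43 CPM with lactate plus Oxyrase, 3.44, 3.54 and 3.05 with pyruvate, 3.5, 3.3 and 4.08 with lactate and 4.31, 3.99 and 3.82 with NaCl. The groups overlapped and the test was not passed (0.28 ± 0.15, adjusted p = 0.129); without Oxyrase replicate 1 adjusted p was 0.0234.

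**Figure D2:**
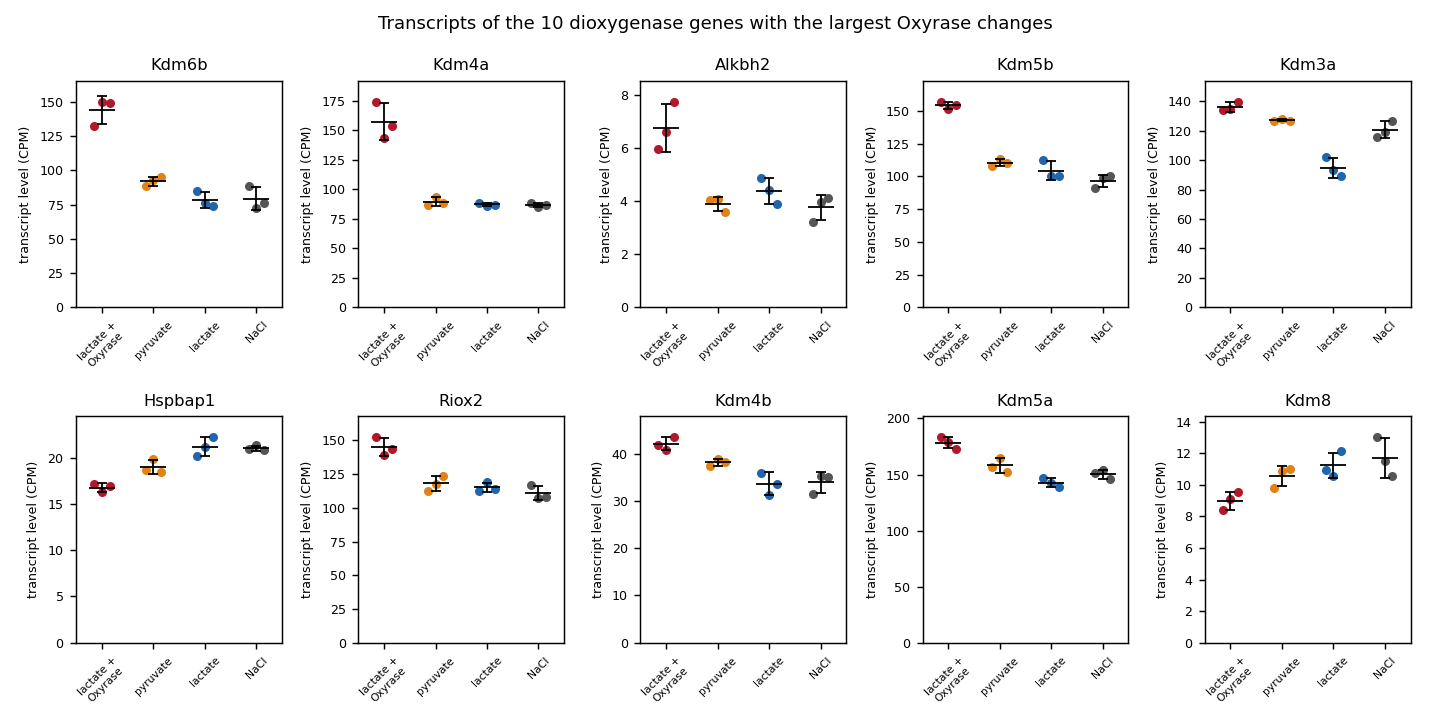
CPM in every RNA library (points; bars are the mean and SD, n = 3 per group; each panel has its own axis from 0) for the members with the largest Oxyrase changes. Kdm6b, Kdm4a and Kdm5b stand above the other groups with Oxyrase, Kdm3a is lowest with lactate, and Hspbap1 and Kdm8 are lowest with Oxyrase.

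Of the 7 ALKB members, Alkbh2 rose, Alkbh1 and Fto fell and 4 did not pass the test. Alkbh2 (chr5:114123926-114131233), which reverses alkylation damage in DNA, had 5.96, 6.6 and 7.77 CPM with lactate plus Oxyrase, 4.04, 4.07 and 3.6 with pyruvate, 4.87, 4.42 and 3.91 with lactate and 3.22, 3.96 and 4.13 with NaCl. All 3 Oxyrase libraries lay above the others, with a change of 0.63 ± 0.13, adjusted p = 0.000599 over lactate and 0.86 ± 0.13, adjusted p = 4.21e-05 over NaCl. The kit does not mark strand, and Alkbh2 overlaps Ung, so reads in the shared stretch cannot be told apart; Ung itself had -0.24 in the same comparison with lactate. Fto, which removes methyl groups from adenosine in RNA, averaged 47.9 ± 2.56 CPM with lactate plus Oxyrase and 55.3 ± 1.68 CPM with lactate (SD, n = 3 each; -0.21 ± 0.05, adjusted p = 0.00139). Alkbh5, the other demethylase of m6A in mRNA, averaged 253 ± 8.37 CPM with lactate plus Oxyrase, 238 ± 9.89 CPM with lactate and 233 ± 11.5 CPM with NaCl; it passed the test over NaCl (0.12 ± 0.04, adjusted p = 0.0216) and not over lactate (0.09 ± 0.04, adjusted p = 0.0813). Alkbh1, which acts on tRNA, fell by 0.22 over lactate on the log2 scale (adjusted p = 0.000439). Alkbh8, which modifies the wobble base of tRNA, had -0.10 over lactate and passed only over NaCl (-0.14 ± 0.05, adjusted p = 0.0184). Alkbh3 and Alkbh4 passed no test. In all, 24 members overlap another annotated gene, 10 of them a tested one.

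Lactate alone changed Kdm3a and no other member relative to NaCl, 1 of 36 against a background of 7.73% of all genes (3.61% higher and 4.12% lower). The groups did not overlap at 7 members (27.4% of all genes). The other 35 had changes between -0.15 (Tet1) and 0.22 (Alkbh2), both without a call.

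Pyruvate and lactate, the oxidised and reduced members of 1 redox pair, were given at the same 20 mM and over the same day, and this is the only pair of related compounds compared. Pyruvate raised 8 members over lactate (Kdm3a, Kdm6b, Kdm4b, Phf8, Tet2, Kdm5a, Jmjd6 and Kdm7a) and lowered 3 (Jmjd8, Riox1 and Hspbap1), against a background of 24% of all genes called (13% higher and 10.9% lower) and 39.6% of all genes with no overlap (11 members). Kdm3a differed most (0.42 ± 0.05, adjusted p = 5.3e-06, 1.34-fold). Jmjd8 (chr17:25829043-25831843) had 16.7, 17.4 and 16.2 CPM with lactate plus Oxyrase, 12.2, 13 and 13.4 with pyruvate, 17.1, 15.4 and 15.5 with lactate and 16, 14.9 and 17.4 with NaCl. The pyruvate libraries lay below all 9 others (-0.31 ± 0.07, adjusted p = 0.00442 over lactate). Jmjd8 overlaps Stub1, which had -0.13 in that comparison. Kdm6b, with the values above, was higher with pyruvate by 0.23 ± 0.07, adjusted p = 0.0195; the call was lost without lactate 2, lactate 3, pyruvate 2 or pyruvate 3 (adjusted p up to 0.0979). Riox1 (chr12:83950608-83952953) had 28.8, 27.9 and 32.4 CPM with lactate plus Oxyrase, 28.8, 29.7 and 29.7 with pyruvate, 36.5, 31.6 and 33.9 with lactate and 33.5, 34.7 and 28.6 with NaCl. Its pyruvate libraries lay below all 3 lactate libraries but overlapped those with NaCl (-0.21 ± 0.07, adjusted p = 0.0478 over lactate). The Riox1 call was lost in 7 of 12 fits that left out 1 library (adjusted p up to 0.185), with DESeq2 (adjusted p = 0.0559) and with replicate number as a block (adjusted p = 0.0819).

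For the 25 members without a call between pyruvate and lactate, the 95% interval of the log2 difference lay within -0.45 to 0.27. Over all 36 members every interval lay inside a 1.5-fold difference in either direction. The count depended on single libraries: without lactate replicate 3 it was 4, without lactate 2 it was 6, and without pyruvate 1, 2 or 3 it was 7, 5 and 6.

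**Figure D3:**
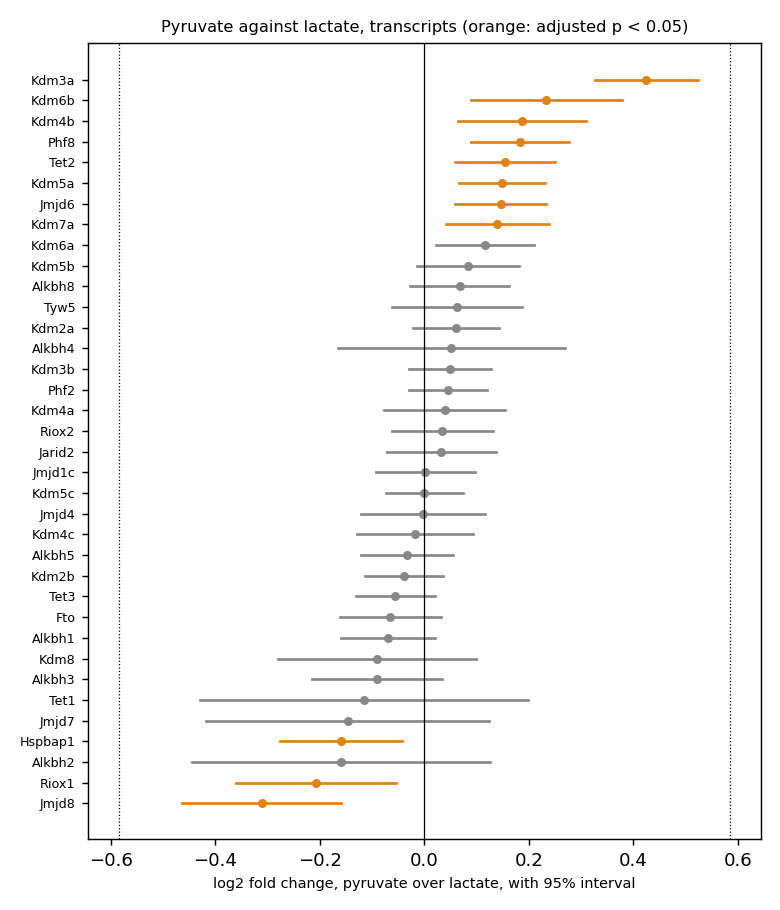
Log2 difference of pyruvate over lactate for each of the 36 transcripts with its 95% interval (bars), ordered by size, with called members marked. Kdm3a lies at the upper end at 0.42 and Jmjd8 at the lower end at -0.31, and all intervals lie inside 1.5-fold.

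Relative to NaCl, pyruvate raised 4 members (Kdm7a, Kdm6b, Kdm5b and Jmjd6) and lowered 3 (Jmjd8, Alkbh1 and Kdm2b), against a background of 15.7% of all genes (9.4% higher and 6.28% lower); the groups did not overlap at 15 members (33.8% of all genes). Kdm7a (chr6:39136620-39206773), a demethylase with a PHD finger that reads H3K4 methylation, had 58.3, 61.8 and 57.6 CPM with lactate plus Oxyrase, 67.5, 70.2 and 64.2 with pyruvate, 64.4, 60.7 and 58.5 with lactate and 57.3, 56.2 and 55.6 with NaCl. The pyruvate libraries lay above all 3 NaCl libraries (0.26 ± 0.05, adjusted p = 0.00132). Jmjd8 fell (-0.32 ± 0.07, adjusted p = 0.00577), and Stub1 had -0.03. Kdm5b rose by 0.19 ± 0.05, adjusted p = 0.00971, without overlap; the call was lost without pyruvate 2 or NaCl 1 (adjusted p up to 0.0551). Kdm6b had 0.21 ± 0.07, adjusted p = 0.0449, with overlapping groups, and lost the call in 8 of 12 fits that left out 1 library (adjusted p up to 0.208). With replicate number as a block 4 of the 7 calls were kept, and those of Kdm6b (adjusted p = 0.0688), Alkbh1 and Kdm2b were lost. Without pyruvate 1, 2 or 3 the count of 7 was 3, 2 and 4, and without NaCl 1 or NaCl 2 it was 3 in each. Across all 5 comparisons, 27 members were called at least once, and Kdm2a, Kdm3b, Kdm6a, Jmjd4, Jmjd7, Tyw5, Tet1, Alkbh3 and Alkbh4 in none.

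Genes that act beside these enzymes were counted in lists, and each count with Oxyrase over lactate stands beside the 26.1% of all genes that were higher and the 23.6% that were lower. Of 18 tested members of other 2-oxoglutarate dioxygenase families, 10 rose and 1 fell with Oxyrase over lactate. The largest changes were in the collagen prolyl hydroxylase P4ha2 (2.42), Phyhd1 (2.17), Egln3 (1.08) and the lysyl hydroxylase Plod2 (0.85). Phyhd1 was low, with means of 4.26 CPM with lactate plus Oxyrase and 0.95 CPM with lactate. Of the HIF hydroxylases, which mark HIF for destruction or silence it when oxygen is present, Egln3 averaged 133 ± 13.5 CPM with lactate plus Oxyrase and 62.9 ± 4.83 CPM with lactate (SD, n = 3 each). Egln1 (-0.01) and Hif1an (-0.09) did not pass the test, and Egln2 fell by 0.15 on the log2 scale. Of 25 tested HIF targets 12 rose and 4 fell over lactate, with a median of 0.18 over the list. Adm rose furthest (2.59) but was low, with means of 5.11 CPM with lactate plus Oxyrase and 0.86 CPM with lactate. The next largest rises were in Slc2a3 (1.28), Vegfa (1.12) and Bhlhe40 (0.90). Those that fell, named after their values were seen, were Ak4 (-0.44), Pdk1 (-0.34), which restrains entry of pyruvate into mitochondria, and the glycolytic enzymes Ldha (-0.22) and Hk2 (-0.12). In the same list 15 rose and none fell with pyruvate over lactate, where 13% of all genes were higher and 10.9% lower, and 12 rose and none fell with pyruvate over NaCl, where 9.4% were higher and 6.28% lower.

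The enzymes that write the marks showed both directions with Oxyrase over lactate. Of 31 histone methyltransferases 4 rose and 7 fell, 11 in all against 49.7% of all genes, with Kmt5b at 0.61, Suv39h1 and Smyd2 both at -0.37, and Setdb2 at -0.29. Of 24 writers and readers of DNA methylation and m6A, 6 rose and 8 fell. The de novo DNA methyltransferases moved apart: Dnmt3b averaged 14.4 ± 0.836 CPM with lactate plus Oxyrase and 29.1 ± 0.82 CPM with lactate (-1.01), and Dnmt3a 328 ± 9.18 CPM with lactate plus Oxyrase and 238 ± 4.54 CPM with lactate (0.46; SD, n = 3 each). Mbd2, a reader of methylated DNA, fell (-0.34) and Mbd1 rose (0.27). Both flavin-dependent histone demethylases, which need oxygen but not 2-oxoglutarate, fell (Kdm1a, -0.30, and Kdm1b, -0.14); of the 3 corepressors listed with them, Rcor2 rose (0.83), and Rcor1 (0.07) and Rcor3 (-0.02) did not pass the test.

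Of 23 genes around 2-oxoglutarate, succinate, fumarate and 2-hydroxyglutarate, 4 rose and 11 fell with Oxyrase over lactate. Gpt2, a transaminase that makes 2-oxoglutarate from glutamate, averaged 107 ± 25.7 CPM with lactate plus Oxyrase and 47.7 ± 5.06 CPM with lactate (1.16). Idh1 (-0.95) and Idh2 (-0.50), isocitrate dehydrogenases that also yield it, fell, and the serine pathway transaminase Psat1 rose (0.41). Of 13 iron supply genes 4 rose and 6 fell, and of the 2 other genes of that list the glucose carrier Slc2a1, which the HIF target list holds too, rose (0.35) and the ascorbate carrier Slc23a2 fell (-0.21). The ferritin light chain Ftl1 rose (1.04), whereas the transferrin receptor Tfrc (-0.76), the ferrireductase Steap3 (-1.55 ± 0.28) and the iron carrier Slc11a2 (-0.53) fell. Steap3 was low in every group, with means of 0.37 CPM with lactate plus Oxyrase and 1.12 CPM with lactate.

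Accessibility was read at 45 ATAC-seq peaks within 1 kb of an annotated end of a member (35 of 36 members, all but Kdm4c) and at 131 peaks inside members away from any gene end. Of the 45, 21 also lay at an end of another gene. With Oxyrase over lactate 2 gene-end peaks were higher and 14 lower, against a background of 26.5% of all gene-end peaks called, 6.76% higher and 19.7% lower. With Oxyrase over NaCl 2 were higher and 28 lower (background 49.4%; 10.7% higher and 38.7% lower). For lactate over NaCl 12 were called, all lower (background 14.6%; 0.597% higher and 14% lower). For pyruvate over lactate 15 were called, all higher (background 19.5%; 16.8% higher and 2.61% lower). For pyruvate over NaCl edgeR and DESeq2 each called 0 of the 45, and 0% of all gene-end peaks by edgeR; 2 of 45 had an unadjusted p under 0.05 (4.44%), against 3.1% of all gene-end peaks.

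The median log2 fold change of the members' gene-end peaks was -0.21 with Oxyrase over lactate, -0.35 with Oxyrase over NaCl, -0.17 with lactate over NaCl, -0.02 with pyruvate over NaCl and 0.19 with pyruvate over lactate. Gene-end peaks as a whole had medians of -0.10, -0.17, -0.08, -0.01 and 0.07 in the same order. When libraries were scaled from gene-end peaks alone, the members' medians were -0.10, -0.14, -0.07, -0.01 and 0.10, and the split of calls changed to 3 higher and 7 lower for Oxyrase over lactate and to 8 higher and 20 lower for Oxyrase over NaCl; of all gene-end peaks 19.7% and 48.6% were then called. The peaks' CPM summed to 1496 to 1577 with lactate plus Oxyrase, 1819 to 1985 with pyruvate, 1635 to 1762 with lactate, and 1734 (replicate 3), 2025 and 2083 with NaCl. Without NaCl replicate 3, the counts of called peaks were 21 for Oxyrase over lactate, 32 for Oxyrase over NaCl, 18 for lactate over NaCl, 0 for pyruvate over NaCl and 16 for pyruvate over lactate. The count for lactate over NaCl was 6 without NaCl 1, 3 without NaCl 2 and 5 without lactate 3. For pyruvate over lactate it was 9 without lactate 3 and 9 without pyruvate 2. The shares of all gene-end peaks called in these refits are not given, so the counts show only dependence on single libraries.

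**Figure D4:**
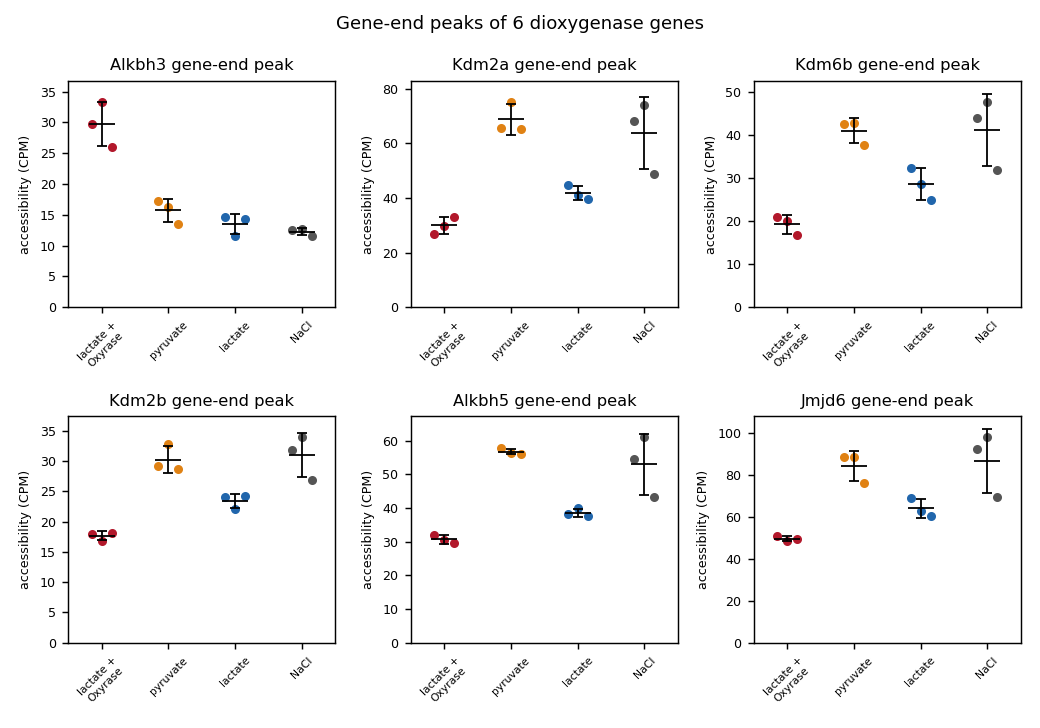
CPM in every ATAC library (points; bars are the mean and SD, n = 3 per group; each panel has its own axis from 0) at the 6 gene-end peaks of members with the smallest p. The peak at Alkbh3 is highest with lactate plus Oxyrase; the other 5 are lowest there, intermediate with lactate and higher with pyruvate, and NaCl replicate 3 lies below NaCl 1 and 2 in those 5.

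The peak at an end of Alkbh3, a repair enzyme of alkylated DNA and RNA, was the exception to the direction of the others (chr2:93979761-93980126, mm10, as the peak table gives it; also an end of Alkbh3os1). It had 29.8, 33.4 and 26.1 CPM with lactate plus Oxyrase, 17.3, 16.2 and 13.6 with pyruvate, 14.6, 11.6 and 14.4 with lactate and 12.5, 12.6 and 11.6 with NaCl. The Oxyrase libraries lay above all 9 others (1.13 ± 0.10, adjusted p = 2.7e-11 over lactate and 1.28 ± 0.10, adjusted p = 1.04e-12 over NaCl). This peak lies at the end of Alkbh3 away from its promoter window. The strongest gene-end peak of Alkbh3 (chr2:94010320-94011246), which covers that window, had 0.01 over lactate and 0.03 over NaCl, both without a call. The Alkbh3 transcript passed no test (-0.03 over lactate).

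The peak at Kdm6b (chr11:69418544-69419387) had 21.1, 20.0 and 16.8 CPM with lactate plus Oxyrase, 42.6, 42.9 and 37.9 with pyruvate, 32.5, 28.6 and 25 with lactate and 44, 47.9 and 31.9 with NaCl. The Oxyrase libraries were the lowest, while the transcript was highest there (-0.57 ± 0.11, adjusted p = 0.000102 over lactate and -1.09 ± 0.11, adjusted p = 1.21e-10 over NaCl). The Kdm6b peak lies inside the gene and does not reach its annotated end at 69420367, and Kdm6b had no promoter window to place it by. The peak at Kdm2a (chr19:4396757-4398204, shared with an end of 9430078G10Rik) had 27, 29.8 and 33.1 CPM with lactate plus Oxyrase, 65.7, 75.3 and 65.4 with pyruvate, 44.9, 41.1 and 39.6 with lactate and 68.1, 74.2 and 48.9 with NaCl. Oxyrase lay below lactate (-0.48 ± 0.11, adjusted p = 0.000571), lactate below pyruvate (0.72 ± 0.11, adjusted p = 4.69e-05 for pyruvate over lactate), and the transcript passed no test. The peak at Kdm2b (chr5:122989073-122989599, shared with A930024E05Rik) had 18, 16.8 and 18.1 CPM with lactate plus Oxyrase, 29.2, 32.7 and 28.6 with pyruvate, 24, 22.1 and 24.2 with lactate and 31.9, 34 and 26.9 with NaCl. Accessibility and transcript were both lower with Oxyrase than with lactate (-0.41 ± 0.09, adjusted p = 0.000839 for the peak). The peaks at Alkbh5 (chr11:60537141-60539036; -0.33 ± 0.10, adjusted p = 0.00784 over lactate) and Jmjd6 (chr11:116842716-116844036, shared with Mettl23; -0.37 ± 0.10, adjusted p = 0.00441) were also lower with Oxyrase than with lactate. Both were higher with pyruvate than with lactate (0.56 ± 0.09, adjusted p = 0.000174 at Alkbh5 and 0.40 ± 0.10, adjusted p = 0.0058 at Jmjd6). Scaled from gene-end peaks alone, all 6 kept their call over NaCl, between -0.88 (Kdm6b) and 1.48 (Alkbh3).

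Of all gene-end peaks, 6.76% were higher and 19.7% lower with Oxyrase over lactate, though these include weaker peaks. At the members whose transcripts moved furthest in that comparison, the strongest gene-end peak was called higher in none of the 10. It fell at Kdm6b, Alkbh2 (chr5:114130313-114131713, shared with Ung; -0.27 ± 0.09, adjusted p = 0.0225) and Kdm5a (chr6:120363352-120364874, shared with Ccdc77; -0.30 ± 0.09, adjusted p = 0.0125), and scaled from gene-end peaks alone only the Kdm6b call was kept (adjusted p = 0.0013). It did not pass the test at Kdm4a (-0.17), Kdm5b (-0.22), Kdm8 (-0.14), Kdm4b (-0.06), Hspbap1 (-0.05), Kdm3a (-0.03) or Riox2 (0.00). The Kdm3a peak (chr6:71632385-71633588), which covers the promoter printed above, had 68.8, 79 and 67.6 CPM with lactate plus Oxyrase, 97.4, 94.1 and 83 with pyruvate, 82.9, 67.6 and 69.6 with lactate and 104, 102 and 80.7 with NaCl. Its lactate and NaCl libraries overlapped; it was lower with lactate than with NaCl (-0.38 ± 0.10, adjusted p = 0.0136) and higher with pyruvate than with lactate (0.32 ± 0.10, adjusted p = 0.0294), as was the transcript in both comparisons. The peak that overlaps the Kdm5b promoter in part (chr1:134560110-134561303) was higher with pyruvate than with lactate (0.40 ± 0.09, adjusted p = 0.00323). The peak over the Kdm4a promoter (chr4:118179439-118180461) was lower with Oxyrase than with NaCl (-0.35 ± 0.09, adjusted p = 0.00235), where the transcript was higher.

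Over the 35 members with a gene-end peak, lactate with Oxyrase set against NaCl gave 11 higher transcripts, of which 9 had a lower strongest peak, 2 had one without a call and none had a higher one. Of the 8 lower transcripts, 4 had a lower peak and 4 one without a call. Of the 16 without a call, 11 had a lower peak, so that 24 of the 35 strongest peaks were lower whatever the transcript did. Of all gene-end peaks 38.7% were lower, but these include weaker peaks. The share among the strongest peaks of all genes was not computed, so these are not like sets. With Oxyrase over lactate 4 of 13 higher transcripts and 2 of 8 lower ones had a lower peak, as had 6 of the 14 without a call. No strongest peak was higher and 12 were lower, where 19.7% of all gene-end peaks were lower. With pyruvate over lactate 4 of 8 higher transcripts, 1 of 3 lower ones and 9 of the 24 without a call had a higher peak. These were 14 of the 35 strongest peaks, where 16.8% of all gene-end peaks were higher.

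**Figure D5:**
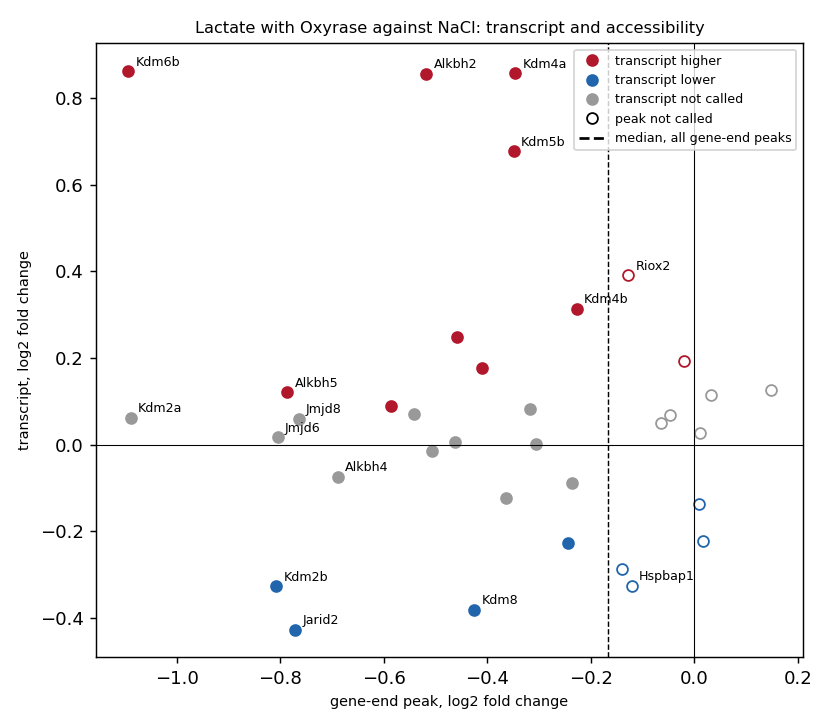
Lactate with Oxyrase against NaCl: log2 fold change of each member's strongest gene-end peak (x axis) and of its transcript (y axis), 1 point for each of the 35 members with such a peak; colour gives the transcript's call, open circles are peaks without a call and the dashed line is the median of all gene-end peaks (-0.17). Kdm6b lies at the upper left, at -1.09 for the peak and 0.86 for the transcript, and no member with a called peak lies right of 0.

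Inside the members, away from gene ends, 26 of 131 peaks were higher and 22 lower with Oxyrase over lactate, against a background of 29.2% of all such peaks called (18.8% higher and 10.4% lower). Over NaCl 36 were higher and 23 lower (background 38.2%; 25.9% higher and 12.2% lower), and 1 was higher and 9 lower with lactate over NaCl (background 3.64%; 1.46% higher and 2.18% lower). With pyruvate over lactate 11 were higher and 8 lower (background 8.99%; 3.27% higher and 5.73% lower). The following were chosen after their values were seen, by the smallest p in any of the 5 comparisons. A peak in Fto (chr8:91555291-91555916) had 22.7, 22.1 and 21.4 CPM with lactate plus Oxyrase, 12, 10.0 and 10.2 with pyruvate, 10.9, 8.58 and 9.65 with lactate and 9.53, 9.94 and 10.7 with NaCl. The Oxyrase libraries lay above all 9 others (1.18 ± 0.10, adjusted p = 1.29e-11 over lactate), while the Fto transcript fell. A weaker peak in Kdm4a (chr4:118138993-118139136) had 6.03, 5.7 and 5.86 CPM with lactate plus Oxyrase, 2.69, 1.76 and 1.78 with pyruvate, 2.18, 1.46 and 1.45 with lactate and 2.28, 1.77 and 1.68 with NaCl, again with the Oxyrase libraries above the rest (1.78 ± 0.20, adjusted p = 4.11e-09). Peaks in Tet2 (chr3:133515113-133515730; 0.78 ± 0.09, adjusted p = 1.7e-08), Jarid2 (chr13:44909939-44910267; 1.41 ± 0.22, adjusted p = 2.03e-06) and a second one in Fto (chr8:91545516-91546088; 0.59 ± 0.09, adjusted p = 3.29e-06) were higher as well, and 1 in Kdm2b (chr5:122899947-122900643) was lower (-0.31 ± 0.11, adjusted p = 0.025 over lactate and -0.89 ± 0.11, adjusted p = 5.6e-09 over NaCl). Of the peaks lower with Oxyrase than with lactate, the smallest p values were at peaks in Tet3 (chr6:83392458-83392781; -1.46 ± 0.31, adjusted p = 0.000372) and Tet2 (chr3:133518743-133519300; -0.53 ± 0.12, adjusted p = 0.000702).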

How the data were processed

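RNA-seq was made by poly(A) capture with a kit that does not mark strand, per the labels' protocols, and the authors deposited estimated counts for each gene. The submitters' processing notes name RSEM 1.2.12, Bowtie2 2.2.0, BWA, MACS2 and edgeR 3.20.9, with mm10. For ATAC-seq the authors deposited read counts in 75802 peaks called for the whole series. Of the non-zero RNA values 99.24% were whole (tolerance 1e-09). Among 460 genes with fractional values above 1, 448 had 0 in every library of 1 replicate number, which points to an earlier adjustment for replicate number; no such step is stated in the sources used here.

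Estimated counts were rounded, filtered with filterByExpr and scaled by TMM. With edgeR 4.0.16 in R 4.3.3, all 12 libraries of an assay entered 1 quasi-likelihood fit without a replicate term (residual df 8; biological coefficient of variation 5.05% in RNA and 9.70% in ATAC). The Benjamini-Hochberg adjustment ran over all genes or peaks, and 0.05 was the threshold. Errors after ± are SE for log2 fold changes and SD for levels. CPM uses the TMM-scaled library size. The procedure was tested on simulated data with independent libraries, few changed features and no adjustment for replicate number. That test therefore cannot say whether RNA p-values are too small here. Gene symbols, coordinates (GRCm38.p6) and promoters came from RefSeq tables; a correction for GC content was not run, since no genome was used here. Peak positions are as the table gives them. The members and lists were chosen with earlier results of these data known. Members given in full were the 10 called ones with the largest change for Oxyrase over lactate, the 4 largest in each other comparison and the TET genes. Peaks were the 6 with the smallest p and the strongest at each of the 10 members. In each list, up to 4 called genes were named by largest change for Oxyrase over lactate. Named beyond these were the HIF hydroxylases, the HIF targets that fell, the glucose and ascorbate carriers of the iron list and the rest of the flavin list. Alternatives changed the scaling, filter, tool (DESeq2 1.42.0), samples, replicate term and window (2.5 kb).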

Additional observations from a re-analysis of the deposited data

How the results depend on the processing

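At these depths every member was counted, but Tet1, Alkbh2 and Jmjd7 had only about 3 to 8 CPM per library and the widest errors. Same-numbered deviations correlated at -0.183 to 0.219 in ATAC, and differently numbered ones at -0.235 to 0.202. With 3 libraries per group these ranges cannot decide whether replicate numbers pair those samples. In RNA (-0.261 to -0.055) the check says nothing of pairing, since the values look adjusted for replicate number. With replicate number as a block the RNA count for pyruvate over NaCl was 4, against 7 without it, and the other RNA counts were 19, 19, 1 and 9; the ATAC counts were 20, 30, 15, 0 and 16, in the order Oxyrase over lactate, Oxyrase over NaCl, lactate over NaCl, pyruvate over NaCl and pyruvate over lactate. Scaling from gene-end peaks alone gave 10 peaks for Oxyrase over lactate, against 16. A window of 2.5 kb gave 24, 40, 14, 0 and 18 of 61 peaks. The shares of all genes or peaks called under the same settings are not set beside these counts, which show only how the members' calls moved. In these the cause was not tested.

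Leaving out each library in turn gave 18 to 22 members for Oxyrase over lactate, 18 to 20 for Oxyrase over NaCl, 1 for lactate over NaCl, 2 to 8 for pyruvate over NaCl and 4 to 12 for pyruvate over lactate in RNA. In ATAC it gave 12 to 21, 26 to 32, 3 to 18, 0 and 9 to 17 in the same order. These ranges likewise stand without the share of all genes or peaks called in each fit. Of 740 values of single members and peaks under an alternative, 677 kept direction and call, 49 lost the call, 4 gained it and 10 turned direction. All 10 are peaks without a call for Oxyrase over lactate. The Riox2 peak was -0.0079 with RLE size factors and -0.0077 with DESeq2, and -0.0648 to 0.0812 on leaving out 1 library (below 0 without Oxyrase 2, lactate 2 or lactate 3). The peaks of Kdm4b (0.0480), Kdm3a (0.0782) and Hspbap1 (0.0637) turned when scaled from gene-end peaks alone. The Kdm3a peak was -0.1062 to 0.0544 on leaving out 1 library (above 0 without Oxyrase 3 or lactate 1). The Tet2 call over lactate was also lost with RLE size factors (adjusted p = 0.0518), without a filter, with DESeq2, with only the 2 groups compared and with the block (0.0678), and the Riox1 call for pyruvate over lactate with DESeq2, with the block and in 7 of 12 fits without 1 library.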
